A study of Drosophila melanogaster with 36 samples.

Results

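The heads of wild-type Canton-S flies kept at 25°C were compared with those of flies kept at 18°C and at 29°C, both set against it at once, to ask which transcripts stood highest or lowest at the middle temperature. All flies were of the same strain and all were entrained for some days in light and dark cycles at their temperature before their heads were collected at 6 zeitgeber times (ZT, hours after lights on). Whole heads hold eye, brain, fat body and muscle, so the RNA of many cell types was read together. The labels list 36 libraries, 2 for each temperature and time, and the table holds 18 columns, 1 for each temperature and time, in normalised reads from 3′ RNA-seq, which reads the end of polyadenylated transcripts. A gene was a member when limma called the mean of 18°C and 29°C against 25°C at an adjusted p under 0.05, with time point as a block, and when the gene lay on the same side of 25°C at both extremes. Of 14010 genes in the table, 8791 had enough reads to be tested, and 858 met the rule (9.76%). Since the 6 columns of a temperature come from different times, none is a replicate of another, and each error is the scatter left after an additive effect of time.

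For a fly, 18°C is cool, 25°C is the usual rearing temperature and 29°C is near the upper end of what cultures tolerate. Levels that rise or fall steadily with temperature were not the subject here, only levels that turn at the middle. Neurons release transmitter when vesicles dock at the membrane, are primed by SNARE proteins and their helpers, and fuse on calcium entry. Sugars enter glycolysis, are stored as trehalose and glycogen, or pass through the pentose phosphate pathway, which yields NADPH and the ribose of nucleotides, while the folate one-carbon cycle supplies carbon units for nucleotides and methionine.

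The columns held 736538 to 2750250 reads on genes. A pair of columns stood apart from the rest in markers of tissues outside the head. At 25°C ZT7, midgut markers summed to 5304 RPM (reads scaled to a common column total) against 82.3 to 165 in the other 25°C columns, and flight muscle markers to 4155 against 1080 to 1596. At 29°C ZT19, midgut markers summed to 1348 RPM, testis markers to 129 and the genes with at least 1 read numbered 10988. Columns apart in head markers included 25°C ZT19 and 25°C ZT3. Head fat body markers at 25°C ZT19 summed to 150817 RPM (75027 to 95893 in the other 25°C columns). Neuron markers at 25°C ZT3 summed to 172 RPM (65.5 to 79.5). Eye photoreceptor markers, all 8 of which were read at every temperature, summed to 15869 to 19377 RPM at 18°C, 21610 to 28150 at 25°C and 20438 to 26432 at 29°C. Neuron markers (elav, nSyb, brp and Syt1) were low, at 47.2 to 102, 65.5 to 172 and 34.2 to 127 RPM, and among them only Syt1 was called. Head fat body markers had medians of 129334, 87031 and 80346 RPM at 18, 25 and 29°C, and none was a member. Flight muscle markers had medians of 1368, 1291 and 652 RPM. Of these, wupA and TpnC41C were members on the lower side, and up was called with the extremes on opposite sides. In such bulk samples, fewer cells of a type and less RNA per cell cannot be told apart. The same 12 library barcodes were used at every temperature, and the labels give no extraction or sequencing date.

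Limma called 950 genes for 25°C against the mean of the extremes (10.8% of those tested), and 2132 had an unadjusted p under 0.05. Of the 950, 550 lay higher at both extremes (6.26% of those tested) and 308 lay lower at both (3.50%), while 92 were called with 18°C and 29°C on opposite sides of 25°C. Both comparisons share the 25°C columns, so the same side at both is partly built in. A gene can also pass through 1 extreme alone. Asked of each extreme separately, 1177 genes passed for 18°C (13.4%) and 1517 for 29°C (17.3%). Both differences passed on the same side for 223 genes, with 166 higher at the extremes (1.89%) and 57 lower (0.648%), and on opposite sides for 140. In 44 of the members higher at the extremes (0.501%), all 6 columns at 25°C lay below all 12 others, and in 26 of those lower (0.296%) all 6 lay above.

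**Figure D1:**
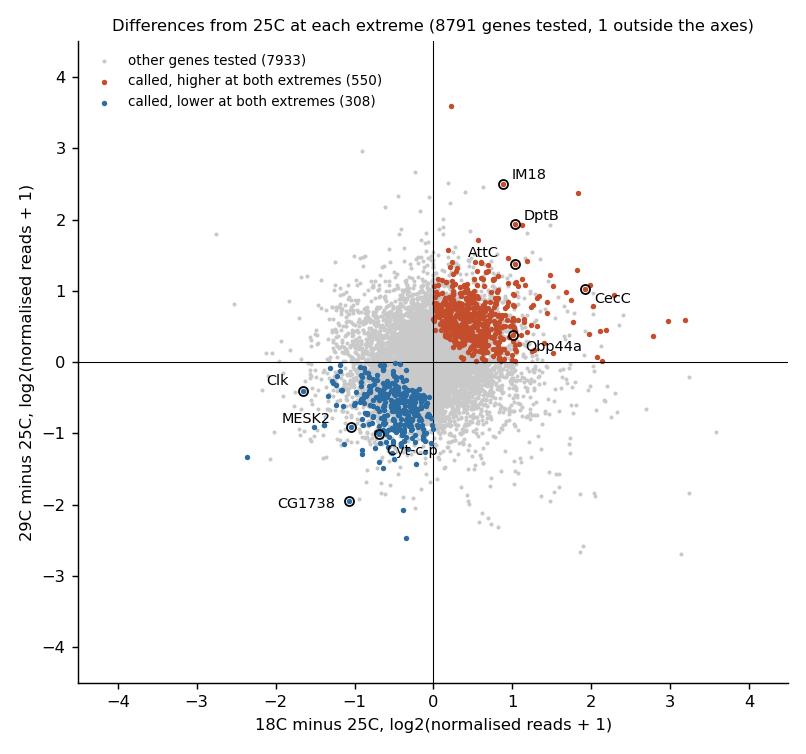
Each point is 1 of the 8791 genes tested (1 lies outside the axes), with the log2 difference of 18°C from 25°C across and that of 29°C from 25°C upward. The 550 called genes in red lie at the upper right and the 308 in blue at the lower left, and the circled genes are named in the text.

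How many genes fell on each side depended on the scale of the columns. On the deposited scale the median gene lay 0.02 (log2) higher at the extremes than at 25°C, and 64.1% of members were higher there. When each column was instead scaled to its total, the median moved to -0.13, and 188 genes were higher (2.14%) against 678 lower (7.71%), so that 21.7% were higher. TMM scaling gave 422 higher and 374 lower (53.0% higher), and edgeR on the recovered reads gave 428 and 424 (50.2%). All 308 lower members were called lower under each of the 3 scalings, as were 188 of the 550 higher members called higher. Both other scalings moved the median gene lower at the extremes (-0.02 under TMM), which by itself favoured keeping the lower calls. Without the columns at 25°C ZT7 and 29°C ZT19, 487 genes lay on one side, 315 higher and 172 lower, among them 288 and 154 of the original members. A fit that put 18°C and 29°C in 1 group, so that their difference counted as error, called 119 genes.

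**Figure D2:**
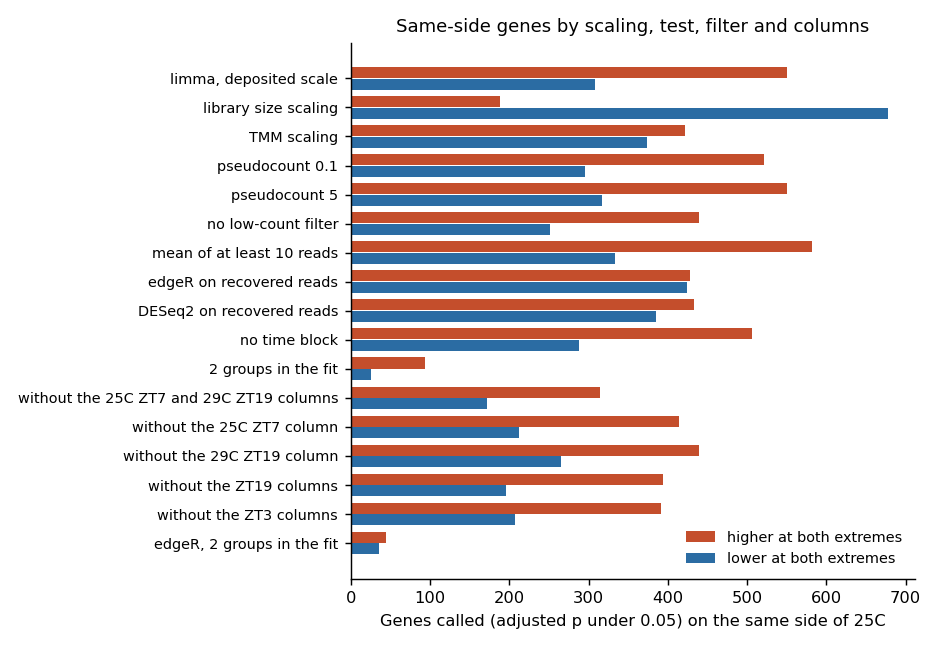
Bars give the number of genes called on the same side of 25°C under each scaling, test, filter and choice of columns, red for higher at both extremes and blue for lower. The deposited scale gave 550 and 308, library size scaling turned the balance to 188 and 678, and treating the extremes as 1 group left 94 and 25.

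Part of the synaptic vesicle release genes stood highest at 25°C. Of 28 such genes tested, 18 had both differences below 0 and 3 had both above, against 2393 and 2603 of all 8791. Members numbered 11, all lower at both extremes (39.3% of the list against 3.50% of all genes). None was a member on the higher side, and 5 of the list passed against 25°C at each extreme. The median difference from 25°C over the 28 was -0.33 (log2) at 18°C and -0.41 at 29°C. The 11 were comt, cpx, Csp, Rab3, Rop, Snap25, stnA, stnB, Syt1, VAChT and VGlut. Of the list, 13 were called lower under library size scaling, 11 under TMM and 11 without the 25°C ZT7 and 29°C ZT19 columns, but 2, comt and cpx, with the extremes as 1 group. Without the ZT19 columns of all temperatures 8 were called lower, and likewise 8 without the ZT3 columns.

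Complexin (cpx, 3R from 108259 to 127266), which binds the assembled SNARE complex and holds it ready for calcium, had 343 to 479 normalised reads at 18°C (median 436), 543 to 659 at 25°C (median 618) and 278 to 378 at 29°C (median 304). Every 25°C column was thus above every other column. The difference from 25°C was -0.53 ± 0.10 (SE, log2) at 18°C and -0.93 ± 0.10 at 29°C (limma adjusted p = 1e-05 for both extremes together). For comt (X from 13153028 to 13156527), the fly NSF ATPase that takes spent SNARE complexes apart, the levels were 64.0 to 92.9 (median 69.1) at 18°C, 100.1 to 133 (median 110.0) at 25°C and 63.5 to 89.8 (median 69.0) at 29°C. Again no column at an extreme reached the 25°C range, and the differences were -0.63 ± 0.13 at each extreme (limma adjusted p = 0.00056).

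The other members of the list overlapped more between temperatures. Rab3, a vesicle GTPase, fell by 1.13 ± 0.14 (log2) at 29°C and differed by -0.41 ± 0.14 at 18°C, and it differed between the extremes as well (limma adjusted p = 0.00039). Syt1, the calcium sensor of fast release, had 37.0 to 74.1 normalised reads at 18°C, 63.6 to 111 at 25°C and 30.1 to 67.5 at 29°C, so that the top of the 18°C range reached close to the 25°C median and the 29°C range overlapped the bottom of that at 25°C. Snap25, a SNARE of the plasma membrane, moved mainly at 18°C (-0.50 ± 0.09, against -0.19 ± 0.09 at 29°C). VAChT, which loads acetylcholine into vesicles, moved at 29°C alone (-0.88 ± 0.13, against -0.01 ± 0.13 at 18°C). The call of VAChT was lost without the 25°C ZT11 column, as was that of Rop, and that of Csp without any of 4 single columns at 25°C. Rop, the fly Munc18, Csp, a vesicle chaperone, and the pair stnA and stnB, which come from 1 dicistronic transcript and share most reads, differed by -0.35 to -0.65 at each extreme. VGlut, the vesicular glutamate transporter, differed by -0.52 ± 0.20 and -0.54 ± 0.20 (limma adjusted p = 0.046), and its call was lost without any of 10 single columns. Of the genes that were not members, nSyb lay higher at both extremes without passing the test, and brp, the active zone scaffold, had few reads.

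**Figure D3:**
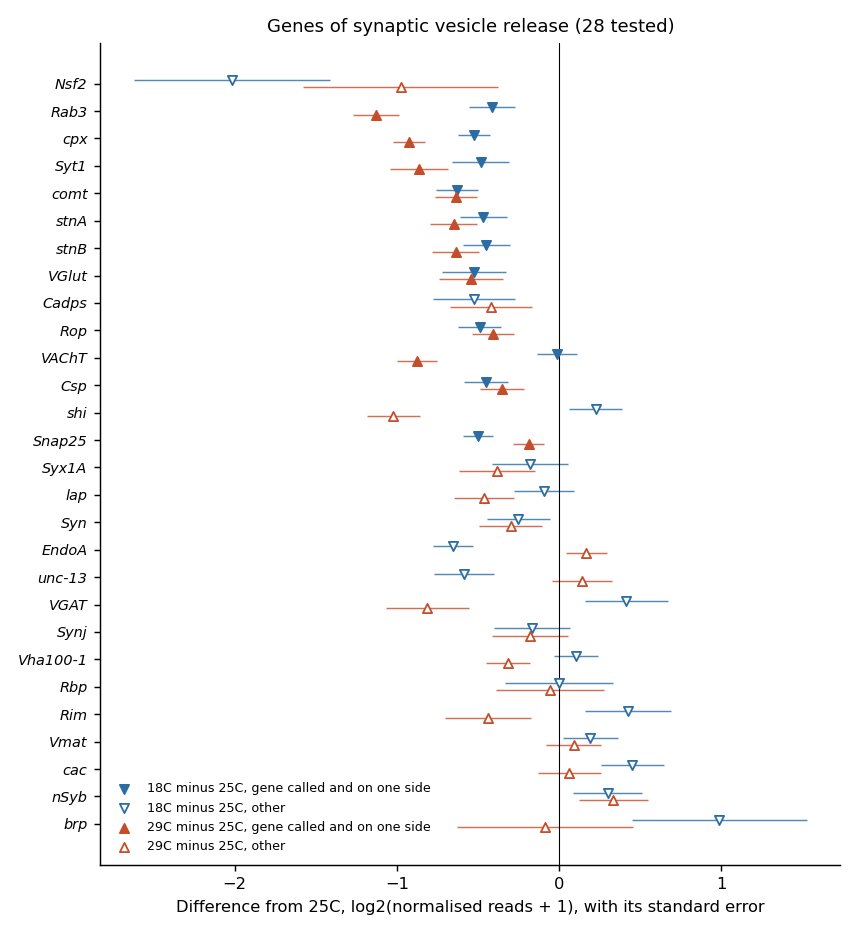
Log2 differences from 25°C for the 28 genes of synaptic vesicle release, at 18°C (blue) and at 29°C (red), with standard errors and with filled symbols for the 11 members. Both filled symbols of each member lie left of 0, though VAChT at 18°C lies at -0.01.

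Other genes with every 25°C column above all 12 others included Gad1, Syt7, MESK2, tmod and BNIP3, which were picked for that separation after their values were seen, apart from MESK2. Gad1 (3L from 4074069 to 4085827), which makes the transmitter GABA from glutamate, had 97.5 to 173 normalised reads at 18°C (median 118), 182 to 226 at 25°C (median 199.9) and 85.2 to 118 at 29°C (median 101). The highest 18°C column, ZT19, came close to the lowest at 25°C. Its differences were -0.73 ± 0.13 and -0.97 ± 0.13 (limma adjusted p = 4.4e-05). Syt7, a synaptotagmin of slower release, had 52.6 to 67.5, 73.7 to 102 and 36.2 to 60.5 normalised reads at 18, 25 and 29°C. MESK2, of the NDRG family, had 32.2 to 53.0, 64.5 to 124 and 39.3 to 54.4, with differences of -1.05 ± 0.17 and -0.91 ± 0.17 (limma adjusted p = 0.00016). For tmod, tropomodulin, which caps actin filaments, they were -0.74 ± 0.15 and -1.20 ± 0.15, and for BNIP3, a receptor for the clearance of mitochondria, -0.62 ± 0.12 and -0.60 ± 0.12. The calls of these 5 genes held under every alternative run. All but MESK2 were picked among genes that passed at each extreme and under the 3 scalings, so for them those runs are no check.

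Of 40 genes for ion channels and pumps, 2 were higher and 2 lower at both extremes. That was 5% each, near the 6.26% and 3.50% of all genes. The 2 lower genes were both subunits of the sodium pump. Atpalpha, its catalytic subunit, had 549.9 to 603 normalised reads at 18°C, 576 to 850.1 at 25°C and 358 to 448 at 29°C, which gave differences of -0.29 ± 0.09 and -0.85 ± 0.09 (limma adjusted p = 5.4e-05). Only the 29°C columns lay wholly below the 25°C range. The beta subunit nrv1 differed by -0.36 ± 0.13 and -0.57 ± 0.13 (limma adjusted p = 0.01) and lost its call without 25°C ZT11. The higher ones were nAChRbeta3, a nicotinic receptor subunit, at 0.52 ± 0.16 and 0.93 ± 0.16, and Irk2, an inward rectifier potassium channel, at 0.47 ± 0.11 and 0.21 ± 0.11, whose call was lost under library size scaling and without any of 5 single columns. Among 31 neuropeptide genes, Dh44 and AstC were lower at both extremes (6.45%) and the insulin-like Ilp5 was higher (3.23%). Ilp5 had 91.2 to 165, 47.0 to 97.5 and 62.0 to 142 normalised reads at 18, 25 and 29°C. The call was lost for AstC without any of 11 single columns, for Dh44 without any of 3 and for Ilp5 without 25°C ZT15 or ZT23. Under library size scaling the list had 1 higher and 7 lower.

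The respiratory chain held members on both sides. Of 73 nuclear-encoded genes tested, 8 were higher at both extremes (11%) and 6 lower (8.22%), against 6.26% and 3.50% of all genes. Cytochrome c (Cyt-c-p, 2L from 16719874 to 16722659), the electron carrier between complexes III and IV, had 343 to 435 normalised reads at 18°C (median 398), 566 to 798 at 25°C (median 601) and 222 to 367 at 29°C (median 339). The 25°C columns lay above all others, and the mean of the extremes differed by -0.84 ± 0.10 (limma adjusted p = 1.2e-05). ND-MLRQ, a small subunit of the chain, showed the same separation at 1327 to 1470.2, 1633 to 2048 and 1003 to 1285 normalised reads. The other lower members were ATPsynbeta, blw, Cyt-c1 and SdhA, and the higher ones included ox, UQCR-6.4 and ND-B12, each by 0.31 to 0.46 at both extremes. Against 25°C, 22 of the list were higher and 2 lower at 18°C, and 8 higher and 17 lower at 29°C. The balance of members moved to 1 higher and 10 lower under library size scaling. Of 13 mitochondrially encoded genes, COX2 and CYTB were lower, almost wholly through 18°C (-0.64 ± 0.08 and -0.63 ± 0.08, against -0.09 and -0.04 at 29°C), and ND1 was higher, mainly through 29°C.

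**Figure D4:**
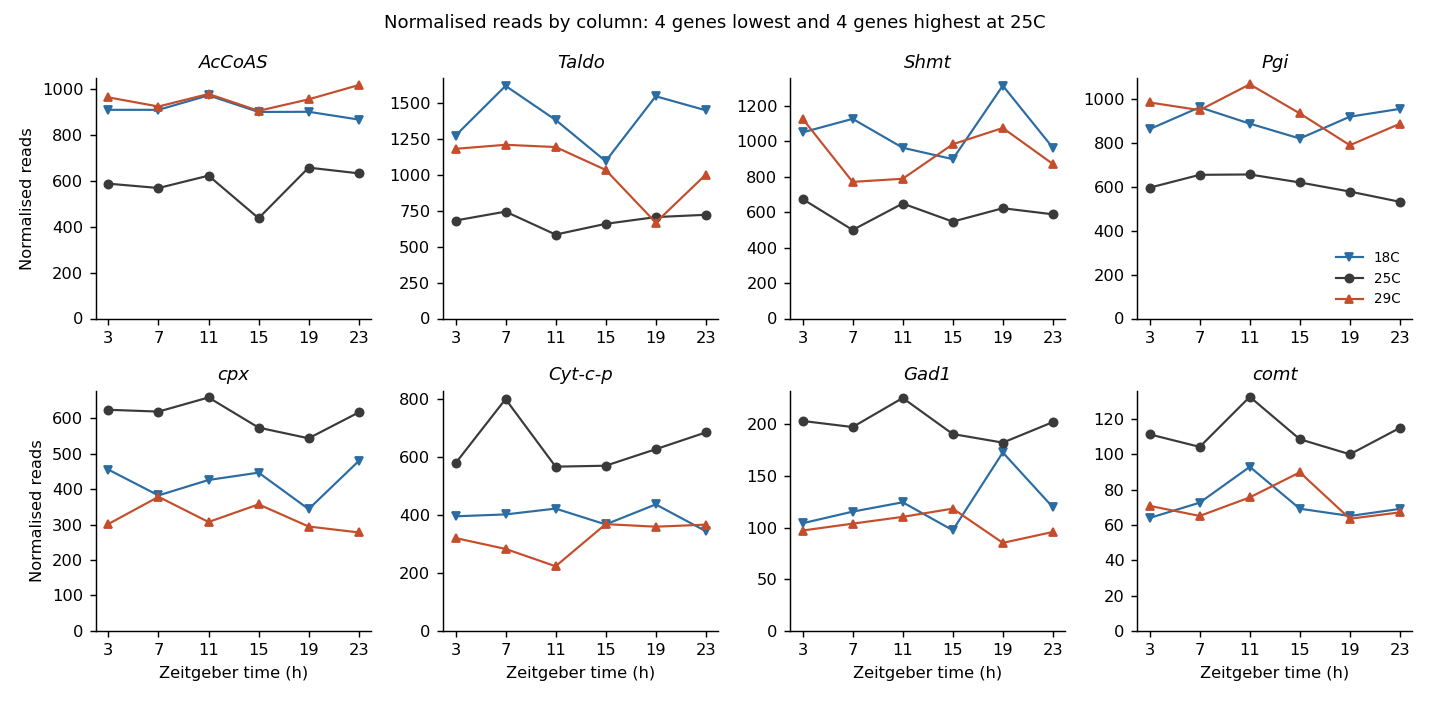
Normalised reads in each of the 18 columns by zeitgeber time for 4 genes lowest at 25°C (top row) and 4 highest (bottom row), with blue lines for the cool, black for the middle and red for the warm temperature. The black line stands apart at every time except for Taldo at ZT19, where 29°C had 668 normalised reads, and it is near the blue line for Gad1 at ZT19.

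Some enzymes of sugar use stood lowest at 25°C, though not as a group. In the glycolysis and tricarboxylic acid cycle list, 6 of 33 genes were higher at both extremes (18.2%) and 4 lower (12.1%). Among all genes the shares were 6.26% and 3.50%. The list as a whole had no single direction (median 0.00 for the extremes against 25°C). Pgi (2R from 4798407 to 4801631), which converts glucose 6-phosphate to fructose 6-phosphate, had 821 to 963 normalised reads at 18°C (median 904), 532 to 657 at 25°C (median 608) and 790.1 to 1068 at 29°C (median 943). No 25°C column reached the others, and the extremes did not differ detectably from each other (0.57 ± 0.08 and 0.62 ± 0.08 above 25°C, limma adjusted p = 1.5e-05). Tpi, triosephosphate isomerase, was likewise below every other column at 25°C, at 1033 to 1403 against 1741 to 2209 at 18°C and 1484 to 1617 at 29°C. Idh, the NADP-dependent isocitrate dehydrogenase, differed by 0.57 ± 0.08 and 0.44 ± 0.08 (limma adjusted p = 4.3e-05), while Idh3b, a subunit of the NAD-dependent enzyme of the cycle, was lower at both extremes (-0.25 ± 0.11 and -0.47 ± 0.11) and lost its call without 25°C ZT7. Library size scaling gave 3 higher and 8 lower in this list.

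The trehalose, pentose phosphate and one-carbon lists were put together after the values had been seen, and their counts are a description. Of 7 genes for trehalose and glycogen, 3 were members, all higher (42.9%, against 6.26% of all genes). They were Tps1 (trehalose synthesis), CG9485 (glycogen debranching) and Pgm1 (phosphoglucomutase). CG9485 lost its call without the 25°C ZT7 and 29°C ZT19 columns. Pgm1 had 1767 to 2431, 1060.1 to 1491 and 1562 to 2055 normalised reads at 18, 25 and 29°C, but the adjacent gene Strump had nearly the same reads in every column, so that the pair may be counted from 1 source. Galt, a transferase of galactose use that was also picked after its values were seen, had 326 to 539, 212 to 284 and 239 to 339 normalised reads and differed by 0.96 ± 0.12 and 0.36 ± 0.12 (limma adjusted p = 0.00013).

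Of 7 pentose phosphate genes tested, 5 were members and all were higher at both extremes (71.4%, against 6.26% of all genes). The list was put together after the values were seen. Taldo (2R from 19827936 to 19829637), transaldolase, had 1096 to 1621 normalised reads at 18°C (median 1417), 585 to 745 at 25°C (median 695) and 668 to 1211 at 29°C (median 1109). Only the 29°C ZT19 column, 1 of the pair that stood apart, fell into the 25°C range. The differences were 1.02 ± 0.12 and 0.59 ± 0.12 (limma adjusted p = 1.5e-05). CG8036, a transketolase, was highest at 29°C (0.98 ± 0.11, against 0.38 ± 0.11 at 18°C), Rpi, ribose 5-phosphate isomerase, differed by 0.58 ± 0.14 and 0.70 ± 0.14, and Pgls, which opens the lactone of the first steps, had 143 to 193, 104 to 116 and 143 to 161 normalised reads. Pgd, the dehydrogenase after it, lost its call under library size scaling and without the 25°C ZT7 column.

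In the folate one-carbon list, also put together after the values were seen, 3 of 7 genes were higher at both extremes and 1 was lower. That was 42.9% and 14.3%, against 6.26% and 3.50% of all genes. Shmt (X from 5807099 to 5810826), which moves a carbon from serine to folate, had 899 to 1313 normalised reads at 18°C (median 1006), 499 to 674 at 25°C (median 605) and 770.3 to 1127 at 29°C (median 927). Every 25°C column lay below all others (0.81 ± 0.10 and 0.64 ± 0.10, limma adjusted p = 9.6e-06). Mthfs and pug, which interconvert folate forms, differed by 0.57 ± 0.11 and 0.63 ± 0.11, and by 0.28 ± 0.09 and 0.74 ± 0.09. Ts, thymidylate synthase, was the lower one, but its call was lost without any of 13 single columns. AcCoAS, acetyl-CoA synthetase, had 868 to 974, 438 to 659 and 906 to 1019 normalised reads at 18, 25 and 29°C (0.65 ± 0.09 and 0.72 ± 0.09, limma adjusted p = 7.9e-06), again with no overlap with 25°C. The calcium-binding protein regucalcin, at 1689 to 2595, 914 to 1377 and 1441 to 2011, and the odorant-binding protein Obp44a, at 5108 to 7638, 2701 to 3214 and 3526 to 4549, were separated in the same way.

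Some subunits of the ribosomes, the proteasome and the CCT chaperonin lay lower at 25°C, while most subunits tested were not members. Of 73 mitochondrial ribosomal proteins, 14 were members and all were higher at both extremes (19.2% against 6.26% of all genes). The count of members was 2 under library size scaling, 10 under TMM and 5 without the 25°C ZT7 and 29°C ZT19 columns. Their leading gene tko (mRpS12), a protein of the small subunit, had 199 to 368 normalised reads at 18°C, 137 to 192 at 25°C and 193 to 278 at 29°C, with no overlap and differences of 0.66 ± 0.12 and 0.57 ± 0.12 (limma adjusted p = 0.00025). Of 86 cytosolic ribosomal proteins, 28 were higher (32.6%), but their number and direction depended on the scale: with library size scaling 8 were higher and 8 lower. The list moved mainly at 29°C, where 61 of the 86 were higher than at 25°C and 1 lower (median 0.44, log2), while at 18°C 10 were higher and 12 lower (median -0.02), and 10 genes were called with the extremes on opposite sides. RpS15 and RpS21 were called through larger differences at 29°C (0.77 ± 0.08 and 0.71 ± 0.09) than at 18°C (0.29 ± 0.08 and 0.32 ± 0.09).

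Of 33 proteasome genes, 7 were higher at both extremes (21.2%, against 6.26% of all genes) and none was lower. Under library size scaling 4 were called higher. The list moved mainly at 18°C, where 28 of the 33 were higher than at 25°C (median 0.62, log2), while at 29°C 3 were higher and 4 lower (median -0.19), and 4 genes were called with the extremes on opposite sides. Prosalpha4 (X from 16170305 to 16171621), a subunit of the core ring, had 189 to 332, 145 to 225 and 271 to 334 normalised reads at 18, 25 and 29°C, so that 18°C overlapped 25°C but 29°C did not. Prosalpha1 and its near copy Prosalpha1R were both members, and reads may be shared between such copies. Of the 32 chaperones, 4 were higher (12.5%) and 1 lower (3.12%), against 6.26% and 3.50% of all genes. The 4 higher were all subunits of CCT, the ring that folds actin and tubulin. CCT1 had 59.2 to 92.1, 35.0 to 59.7 and 74.3 to 115 normalised reads (0.75 ± 0.17 and 1.15 ± 0.17, limma adjusted p = 0.00013), with the 29°C columns all above 25°C. For CCT4, CCT5 and CCT8 the mean of the extremes lay 0.57 to 0.75 above 25°C. Of the 8 subunits, a list put together after the values were seen, 7 had both differences above 0. So did 2603 of all 8791 genes tested.

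In a list for protein entry into the endoplasmic reticulum, also put together after the values were seen, 6 of 21 genes were members. All 6 were higher (28.6%, against 6.26% of all genes). The signal peptidase subunit twr had 214 to 269, 73.9 to 148 and 152 to 240.5 normalised reads at 18, 25 and 29°C, and CG8860, a Sec61 gamma-like subunit of the translocation channel, 415 to 516, 229 to 299 and 336 to 414. Neither overlapped between 25°C and the extremes (limma adjusted p = 0.00016 and 8.7e-06). SrpRalpha, the receptor of the signal recognition particle, and Tapdelta, which sits by the channel, differed by 0.50 to 0.65 at both extremes. Srp9 lost its call without any of 14 single columns. Of 46 translation factors 7 were higher (15.2%) and 5 lower (10.9%), against 6.26% and 3.50% of all genes, or 2 and 10 under library size scaling. Of 49 splicing genes 2 were higher (4.08%, against 6.26% of all genes), SmB and SmE, both lost under library size scaling. The highest of the translation group, eIF5B, differed by 0.48 ± 0.14 and 0.82 ± 0.14.

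Antimicrobial and immune-induced peptides varied widely between columns. Of 32 genes tested, 7 were higher at both extremes (21.9%) and 3 lower (9.38%), against 6.26% and 3.50% of all genes. Under library size scaling 5 were higher and 6 lower. DptB (2R from 14754895 to 14755402), a diptericin made by the Imd pathway, had 65.1 to 347 normalised reads at 18°C (median 103), 20.1 to 192 at 25°C (median 48.7) and 85.7 to 492 at 29°C (median 247), which overlap. It rose by 1.94 ± 0.36 at 29°C and by 1.03 ± 0.36 at 18°C, where it did not pass alone (limma adjusted p = 0.062). AttC, an attacin, differed by 1.04 ± 0.32 and 1.38 ± 0.32 and lost its call without the 29°C ZT19 column. IM18 was highest at 29°C, at 452 to 3428 normalised reads against 90.9 to 331 at 25°C. CecC, a cecropin, differed by 1.93 ± 0.50 and 1.03 ± 0.50, but its call was lost without any of 11 single columns. The members lower at both extremes were BomT2, BomT3 and Drsl3. One of 10 peptidoglycan recognition genes was a member, PGRP-SA (10%), and 1 of 4 Turandot genes, TotC (25%), both on the higher side. TotA, TotM and TotX were not called. The calls of PGRP-SA and TotC were lost under library size scaling and under TMM, and without any of 12 single columns for PGRP-SA and 13 for TotC.

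Of the members, 490 higher ones (5.57% of genes tested) and 288 lower ones (3.28%) had a mean of at least 10 normalised reads and lay on their side of 25°C in at least 10 of 12 time-matched pairs of columns. Ranked by the smaller of their 2 differences, the first 12 were, on the higher side, Atu, Nost (as CG42388 and CG4040, which overlap and share nearly all reads), tx, CG3511, e(r), AttC, CG8191, CecC, DptB, RanGAP and Rrp4. Most had few reads. Atu, the fly Leo1 of the Paf1 elongation complex, had 18.0 to 32.2, 2.88 to 21.6 and 7.75 to 31.8 normalised reads at 18, 25 and 29°C, and CG3511 had 15.3 to 42.6, 4.24 to 12.5 and 10.6 to 25.3. The call was lost for tx without 25°C ZT7 or ZT11, for CG8191 without 25°C ZT3 or ZT11, for RanGAP without any of 6 single columns, and for Nost without any of 12 or, as CG4040, 14. Only e(r), enhancer of rudimentary, and CG3511 kept their call in every alternative. They differed by 1.07 ± 0.24 and 1.06 ± 0.24, and by 1.51 ± 0.29 and 1.06 ± 0.29 (limma adjusted p = 0.0015 and 0.0012). On the lower side the 12 were CG13616, CG1738, beat-IIb, MESK2, Gasz, aust, dcma, insb, qkr54B, Ptpmeg2, crol and mspo, of which insb and qkr54B had identical reads in every column. CG13616 (-1.14 ± 0.27 at each extreme) and MESK2 kept their call in every alternative, while beat-IIb, a cell surface protein of axon guidance, lost it without any of 10 single columns. CG1738 lost it without 25°C ZT7, crol without 25°C ZT19, mspo without 25°C ZT7 or ZT23, and the others without any of 3 to 5 single columns.

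Most clock genes were not members. All 8 were tested, and Clk, the activator of the clock, was the only member (12.5% of the list against 3.50% of all genes). Lower at both extremes, Clk had 1.95 to 15.4 normalised reads at 18°C, 5.43 to 29.5 at 25°C and 6.53 to 24.7 at 29°C. It moved mainly at 18°C (-1.66 ± 0.37, against -0.40 ± 0.37 at 29°C), and its call (limma adjusted p = 0.041) was lost without any of 11 single columns. For per, tim, vri, cry, cwo, cyc and Pdp1, the difference of the extremes from 25°C lay between -0.33 and 0.22 with limma adjusted p of 0.44 or more. Phototransduction had 1 of 32 genes higher (Ggamma30A, 3.12%) and 2 lower (6.25%), against 6.26% and 3.50% of all genes. The 2 lower were ninaE, the main rhodopsin, at -0.59 ± 0.10 and -0.26 ± 0.10, and Gbeta76C. Under library size scaling 9 were lower.

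The remaining lists were near the shares of all genes (6.26% higher and 3.50% lower) or above them on both sides. Detoxification genes had 4 of 99 higher (4.04%) and 5 lower (5.05%). Among them GstZ1, a glutathione transferase, was lower at both extremes by 0.88 ± 0.17 and 0.57 ± 0.17 (log2), and was called in every alternative. Odorant-binding proteins had 3 of 31 higher (9.68%) and 4 lower (12.9%), or 2 and 5 under library size scaling. Lipid and fat body genes had 5 of 39 higher (12.8%) and 3 lower (7.69%), or 2 and 4. Of 46 cuticle genes 2 were higher (Cpr11B and Cpr67B, 4.35%), and of 18 autophagy genes 1 was higher (5.56%). Lsp2, a storage protein of the fat body, had 5919 to 13344 normalised reads at 18°C, 626 to 5272 at 25°C and 2308 to 8723 at 29°C, and lost its call without the 29°C ZT19 column. The lipid droplet protein Lsd-2 and the transcription factor foxo were lower at both extremes, and both lost the call without 25°C ZT7 or ZT23.

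Members that were higher and lower at the extremes differed in gene structure. Each gene's 3′ UTR was that of its transcript with most exon bases in the annotation of the Release 6 assembly. Its median length was 147 bases in genes higher at the extremes, 816 in genes lower there and 297 in all genes tested. The genes spanned medians of 1834.5, 4921 and 2539 bases in the table, and the transcripts so chosen held medians of 3, 5 and 4 exons. With genes split into 5 equal groups by 3′ UTR length, 10.7% of the group with the shortest were higher at the extremes and 1.1% lower, against 3.06% and 7.91% of the group with the longest. The synaptic release list had a median 3′ UTR of 2137 bases, and 21 of its 28 genes fell into the longest group, where 7.91% of all genes were members on the lower side. Under library size scaling the medians were 142 and 626.5 bases, and without the 25°C ZT7 and 29°C ZT19 columns 129.5 and 809.5.

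Within each column, the longest group stood above the shortest by 0.07 to 0.50 (median log2 deviation from a gene's mean) at 25°C, with ZT3 highest, by -0.07 to 0.15 at 18°C and by -0.33 to 0.12 at 29°C. The 29°C columns were all below the 25°C median, and the 29°C ZT3, 18°C ZT3 and 18°C ZT23 columns were in the 25°C range. Whether library preparation or RNA quality had a part in this was not tested. Members were also more highly read than the genes tested as a whole, with median levels of 135 and 76.8 normalised reads against 27.3 in all genes tested. Of the 1758 most read genes 352 were higher members and 139 lower, against 11 and 3 of the 1759 least read. Differences are easier to call in genes with many reads, so a higher level of members is partly built into the rule. Genes on X made up 22.7% of higher members, 14.3% of lower members and 16.6% of those tested.

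**Figure D5:**
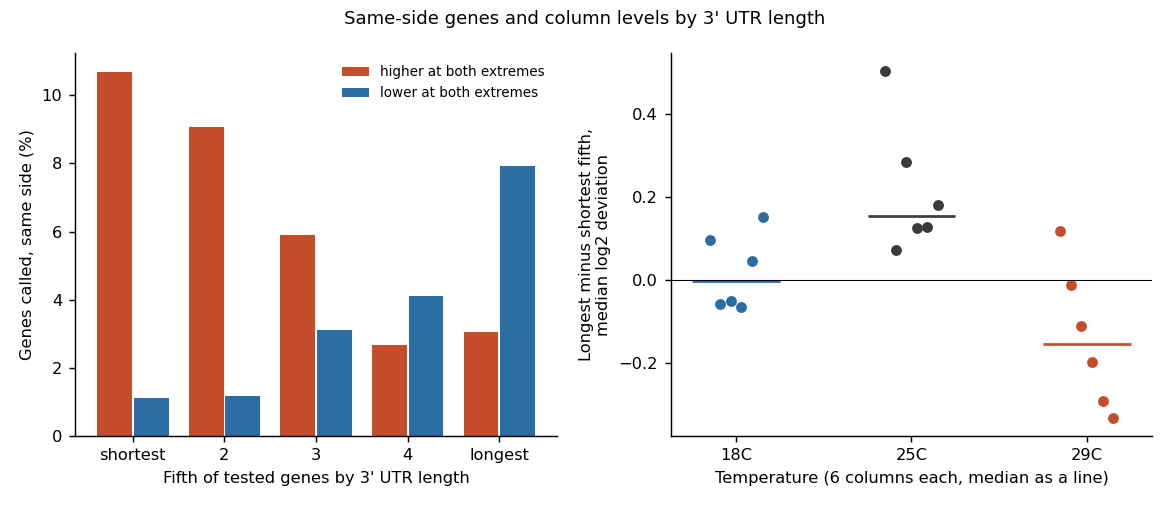
Left, the percent of tested genes called on the same side in 5 equal groups by 3′ UTR length, higher at the extremes in red and lower in blue, from 10.7% and 1.1% to 3.06% and 7.91%. Right, for each column (in time order within a temperature, median as a line) the median log2 deviation of the longest group minus that of the shortest, which lay above 0 in all 6 columns at 25°C.

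The extremes were not alike for many members. Of the 858, 374 (43.6%) also differed between 18°C and 29°C, 238 of those higher and 136 of those lower, against 2453 of all genes tested (27.9%). Galt, CG8860, Gtpx and Obp44a were further from 25°C at 18°C, and pug, CG8036, RpS15, Rab3 and Atpalpha at 29°C, each with the extremes apart (limma adjusted p = 0.0019 or less for each). For comt, Pgi, AcCoAS, Tapdelta and BNIP3 the difference between the extremes was -0.07 to 0.00 (log2). A dependence on the phase of the day was tested as an interaction of the contrast with light against dark time points. One gene passed (0.0114%), Obp99b, an odorant-binding protein whose extremes stood above 25°C by 1.51 (log2) more in the light than in the dark (limma adjusted p = 0.0248), and 525 genes had an unadjusted p under 0.05. No gene passed without the 25°C ZT7 and 29°C ZT19 columns, with 517 at an unadjusted p under 0.05, nor in 9 of the 18 fits that left out 1 column.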

How the data were processed

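Polyadenylated RNA of heads was read from its 3′ ends. The submitters' processing notes name Bowtie2, TopHat, Cufflinks and the dm3 build with no role given. The authors deposited 21081 transcripts in 18 columns of normalised read signal, and how each column was made from its 2 labelled libraries is not given in the sources used here. The ZT19 columns were taken as the zt18 labels. All values (100%) were whole reads times 1 step per column, to within 6.3e-05 reads, so whole reads were recovered.

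Per gene, the transcript with most reads was kept (14010 genes, 13535 with a symbol), and 8791 passed filterByExpr of edgeR 4.0.16. Then log2(value + 1) entered a linear model on 3 temperatures and time point, over all genes (limma 3.58.1 under R 4.3.3, eBayes trend on), with Benjamini-Hochberg adjustment and a threshold of 0.05. Fold differences are on that scale and are understated for low genes. The 3′ UTR lengths came from the Ensembl annotation of Release 6, for the transcript of each gene with most exon bases. The fit was tested on data simulated with the same spread for all genes and with no effect of time and no outlying columns. That run therefore does not bear on the choice of scale or on the columns that stood apart. Strand use and molecular identifiers are not stated, so overlapping genes (31.6% of members, 32.5% of those tested) are uncertain, and 96 genes with at least 100 reads shared a read profile with another.

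The rule and the gene lists were chosen with earlier results of these data known. Named genes were the 12 with the largest smaller difference in each direction (mean of at least 10 normalised reads and the same side in at least 10 of 12 time-matched pairs), up to 4 from each list by the same rank, and short lists in full, less some that are not reported here. Genes singled out for separated columns, and all called members of the synaptic release, CCT, trehalose, pentose phosphate, one-carbon and endoplasmic reticulum lists, and Galt, were added after their values were seen, as were BaraA, Bom, Drsl3 and respiratory names outside that rank. The genes with separated columns were also required to pass at each extreme and under the deposited, library size and TMM scales. Alternatives were scaling, pseudocounts of 0.1 and 5, filters, edgeR, DESeq2 1.42.0, no time block, 2 groups, and columns left out.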

Additional observations from a re-analysis of the deposited data

Results flagged for a closer look

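In each temperature the highest or lowest of the 6 columns was checked for standing apart from the other 5. Chance alone would pick about 1 in 20 groups, and of 39 groups of column measures 12 had such a column, against 18 of 354 groups of genes named in the report.

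Among the column measures, the 25°C ZT7 column had 5304 RPM of midgut markers (82.3 to 165 in the other 25°C columns) and 4155 of flight muscle markers (1080 to 1596). The 29°C ZT19 column had 1348 RPM of midgut markers (119.6 to 178), 129 of testis markers (6.18 to 24.5), 209.6 of accessory gland markers (99.1 to 137) and 10988 genes with a read (9262 to 9804). At 25°C ZT19, head fat body markers summed to 150817 RPM (75027 to 95893) and the 10 leading genes took 23.4% of reads (16.5 to 17.9). Head fat body markers were low at 18°C ZT7, at 91581 RPM (120003 to 133794). Neuron markers were high at 25°C ZT3, at 172 RPM (65.5 to 79.5), and at 29°C ZT3, at 127 (34.2 to 63.3), and mitochondrial genes took 0.974% of reads at 18°C ZT23 (0.860 to 0.897).

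Among the genes, comt was high at 18°C ZT11 (92.9 normalised reads against 64.0 to 72.6), Gad1 at 18°C ZT19 (173 against 97.5 to 125), VAChT at 29°C ZT11 (99.8), Tps1 at 18°C ZT15 (2642 against 1679.6 to 1928), ND-B12 at 18°C ZT7 (2114), ND1 at 29°C ZT7 (789) and nAChRbeta3 at 18°C ZT11 (126). GstZ1 was high at 29°C ZT11 (69.6), PGRP-SA at 25°C ZT19 (92.5), insb and qkr54B at 29°C ZT11 (18.2 each, from the same reads) and ND-MLRQ at 25°C ZT7 (2048). Low columns were CYTB at 18°C ZT7 (1065), Prosalpha1 at 29°C ZT3 (267), AstC at 25°C ZT3 (34.1) and ND-MLRQ at 18°C ZT3 (1327). Pgd was low at 18°C ZT15 (552) and high at 29°C ZT3 (1148).

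The difference of the extremes from 25°C was larger in the light than in the dark for Obp99b, by 1.51 (log2, limma adjusted p = 0.0248), and the gene did not pass without the 25°C ZT7 and 29°C ZT19 columns.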

How the results depend on the processing

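Against 950 called and 858 on one side (550 higher, 308 lower), the fit with the extremes as 1 group called 119, all on one side (94 higher, 25 lower), and with edgeR, an alternative chosen after seeing the data, 81 (45 higher, 36 lower). Without the 25°C ZT7 and 29°C ZT19 columns 530 were called, 487 on one side (315 higher, 172 lower), 141 passed at each extreme (223 in the report), 223 members differed between 18°C and 29°C (374 in the report) and 0 passed the phase test in limma, with 517 at an unadjusted p under 0.05. Without the ZT19 columns 196 were lower and 147 passed at each extreme. Without the ZT3 columns of all temperatures, also added after seeing the data, 662 were called. Library size scaling gave 188 higher and 678 lower. A 2-fold limit left 55 called, and 1.5-fold at both extremes left 138 on one side. With each column left out in turn, 609 to 1014 genes were called, 553 to 922 on one side, 372 to 598 higher, 181 to 324 lower, 151 to 232 at each extreme, 273 to 366 members between the extremes and 0 to 3 by phase. The lowest counts came without 25°C ZT11 (609 called, 181 lower), and there were 613 called and 182 lower without 25°C ZT23 and 194 lower without 25°C ZT19. Of those lower, 171, 172 and 181 were among the 308 without 25°C ZT11, ZT23 and ZT19. TMM called 883, edgeR 937, DESeq2 931 and the fit with no time block 868. No named gene changed direction while called. Of 129 named genes called, 36 kept the call in every alternative, 47 lost it without some single column, and 15 lost it in most alternatives. Genes picked for separated columns had to be called on the deposited, library size and TMM scales, which raised the count of 36. No paired analysis was possible because the columns carry no replicate numbers, and columns were matched by time point only, through the time block. The cause of these changes was not tested. Depth was 736538 to 2750250 reads per column, so that differences of genes with a few reads per column could not be resolved.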
